A study of Mus musculus with 4 samples.

Results

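The 37 genes described here were listed around the amino acid response of the transcription factor ATF4, and are not each taken as its targets. They comprise Atf4 and Atf5, a pair of feedback and effector genes of the same response, 8 genes of asparagine, serine, alanine, aspartate and proline synthesis, 6 folate one-carbon enzymes, 2 transsulfuration enzymes and 17 cytosolic aminoacyl-tRNA synthetases. The rule names them by gene symbol and uses no measured value, and all 37 were found among the 39056 genes of the count table. RNA with a poly(A) tail was sequenced from lungs of S1PR1-GFP reporter mice, in which green fluorescent protein marks cells that express the receptor S1PR1, after a sort for GFP-positive, CD31-positive and CD45-negative cells. The compared libraries carried the labels no LPS, 8 h LPS, 16 h LPS and 20 h LPS, with 1 library for each label, and the reporter allele was shared by all of them. The labelled dose of lipopolysaccharide (LPS), a bacterial outer-membrane component, was 10 mg/kg into the peritoneum. Strain, age and the number of animals behind a library are not given in the labels, and the wording of the treatment protocol leaves unclear whether the hours count from 1 injection, so the hours are used as the labels give them.

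ATF4 is made when the initiation factor eIF2 is phosphorylated by one of the kinases GCN2, PERK, PKR or HRI, a state called the integrated stress response. Phosphorylation slows most translation while short upstream reading frames let ribosomes reach the coding sequence of Atf4 (and of Atf5), so that much of the control of these factors lies in translation, which RNA-seq does not measure. ATF4 pairs with C/EBP factors on composite DNA elements and switches on genes that import and make amino acids, feed serine carbon into folate, and charge tRNAs. In endothelial cells and fibroblasts the serine and folate steps are known for supplying glycine, purines and mitochondrial NADPH.

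The libraries held between 27566454 and 28905776 counted reads. A floor of 3 reads, about the 1-sided 95% upper limit for a count of 0, equalled 0.104 to 0.108 CPM. CPM stands for reads relative to the library total after TMM scaling. The defining transcripts of endothelium went against the label: Pecam1, which encodes CD31, had 7, 2, 2 and 1 reads in the no LPS, 8 h, 16 h and 20 h libraries, and Erg, Emcn and Cldn5 had 0 in all 4. Of 13 endothelial markers 2 reached 1 CPM, and the list summed to 5.77 to 8.78 CPM. Vim, which encodes the intermediate filament vimentin of mesenchymal cells, had 66653, 79227, 79534 and 70412 reads in label order, and made up most of the 2815 to 3246 CPM to which 9 fibroblast and mesenchymal markers summed. Col1a1 and Col1a2 of that list were near 0, with at most 4 reads and 1 read in any library, and Pdgfrb stayed below 1 CPM. Of the 9 markers 6 reached 1 CPM. Besides Vim, Prrx1 had 209 to 213 CPM, Col3a1 81.8 to 168, Twist1 34.9 to 50.4, Pdgfra 31.3 to 34.4 and Dcn 2.96 to 9.48. The libraries are therefore called here by their labels and by no cell type. Because every label had a single library, differences between animals, sorts or preparations cannot be told apart from differences between labels. A gene was called higher or lower by a rule of size, not a test: a scaled ratio of at least 2-fold in either direction, an exact conditional binomial 95% interval on one side of 1, and a level of 1 CPM or more in the library where it was higher. Intervals cover counting error only. The 11803 genes that reached 1 CPM in any library are called measured genes.

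All 37 members were measured, 36 of them at 10 CPM or more and 33 at 100 CPM or more in at least 1 library. Together they took 1.65%, 1.66%, 1.65% and 1.63% of the reads in the no LPS, 8 h, 16 h and 20 h libraries. Per kilobase of annotated exon in the library labelled no LPS, Atf4 stood first of the members at 342.6 CPM per kb, above 99.5% of measured genes. Nars, which charges tRNA with asparagine, followed at 286.9 CPM per kb, Asns, which makes asparagine, at 260.5 and Gars, the glycyl synthetase, at 256.5. The low end was set by Atf5 at 25.3 CPM per kb, Shmt1 at 23.8, Pycr1 at 21.2 and Cbs at 0.265, and Cbs alone lay below the median measured gene, above 3.68% of them. Aldh1l2, Atf5 and Cbs were the members whose highest and lowest levels lay more than 1.5-fold apart, as the plot of levels per kilobase shows.

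**Figure D1:**
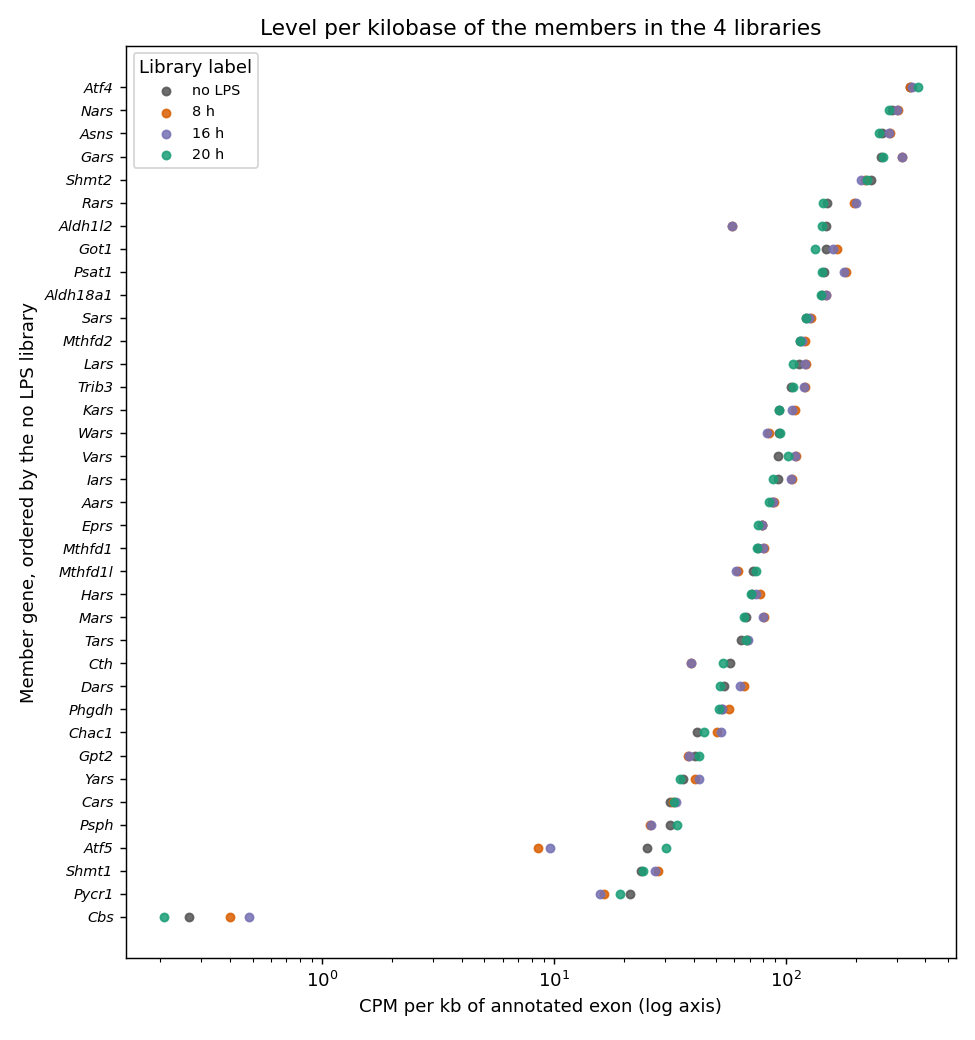
Level of each of the 37 members per kilobase of annotated exon, as CPM per kb on a log axis, with 1 point for each of the 4 libraries and genes ordered by the library labelled no LPS. Atf4 leads at 342.6 CPM per kb and Cbs closes the order at 0.265, and the 8 h and 16 h points of Aldh1l2 and Atf5 lie left of their no LPS and 20 h points.

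The best known sign of ATF4 in a promoter is the C/EBP-ATF response element, searched here as TGATGNAA on both strands in the 300 bases from 250 before to 50 after the RefSeq start (GRCm38.p6). Windows were at hand for 28 of the 37 members, and 10 of these (35.7%) held a match, against 3.97% of 32851 windows and 4.51% of 27025 genes in the table. The 10 were Trib3, Chac1, Asns, Got1, Pycr1, Aars, Gars, Iars, Tars and Yars, and Aars had a second match after its start. The 250 bases before the start are printed for 6 members, 5′ to 3′ on the strand of the gene, with the match in capitals. Asns (chr6:7693210-7693459, minus strand, match beginning 23 bases before the start) and Chac1 (chr2:119350992-119351241, plus strand, 193 bases) are textbook ATF4 targets. Pycr1 (chr11:120643749-120643998, minus strand, 103 bases) holds a match and had ratios below 1 at 8 h and 16 h. Aars (chr8:111033592-111033841, plus strand, 112 bases) and Tars (chr15:11399659-11399908, minus strand, 15 bases) stand for the synthetases. Atf5 (chr7:44816659-44816908, minus strand) was called lower at 8 h and 16 h and holds no match in its window.
Asns: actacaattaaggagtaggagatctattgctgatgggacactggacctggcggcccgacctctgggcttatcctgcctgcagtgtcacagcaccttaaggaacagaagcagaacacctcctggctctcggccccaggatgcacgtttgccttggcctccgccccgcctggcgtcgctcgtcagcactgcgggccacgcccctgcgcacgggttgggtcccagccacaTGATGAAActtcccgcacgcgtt
Chac1: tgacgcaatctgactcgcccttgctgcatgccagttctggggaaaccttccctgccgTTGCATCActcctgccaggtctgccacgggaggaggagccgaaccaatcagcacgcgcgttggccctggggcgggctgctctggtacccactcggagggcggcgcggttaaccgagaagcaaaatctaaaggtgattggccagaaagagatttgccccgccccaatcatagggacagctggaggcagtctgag
Pycr1: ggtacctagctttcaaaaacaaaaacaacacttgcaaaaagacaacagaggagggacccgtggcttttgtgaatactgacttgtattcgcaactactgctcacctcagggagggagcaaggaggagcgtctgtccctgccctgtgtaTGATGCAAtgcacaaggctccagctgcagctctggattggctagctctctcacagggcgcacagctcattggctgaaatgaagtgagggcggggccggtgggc
Aars: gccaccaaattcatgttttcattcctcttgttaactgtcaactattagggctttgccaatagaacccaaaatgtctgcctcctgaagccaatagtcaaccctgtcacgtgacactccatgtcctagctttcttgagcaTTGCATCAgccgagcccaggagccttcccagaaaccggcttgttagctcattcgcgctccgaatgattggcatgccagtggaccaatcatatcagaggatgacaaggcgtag
Tars: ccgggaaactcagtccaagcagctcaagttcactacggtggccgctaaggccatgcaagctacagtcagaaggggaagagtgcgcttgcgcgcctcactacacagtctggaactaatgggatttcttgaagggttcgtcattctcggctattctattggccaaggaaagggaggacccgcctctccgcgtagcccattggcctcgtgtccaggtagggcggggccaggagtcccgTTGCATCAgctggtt
Atf5: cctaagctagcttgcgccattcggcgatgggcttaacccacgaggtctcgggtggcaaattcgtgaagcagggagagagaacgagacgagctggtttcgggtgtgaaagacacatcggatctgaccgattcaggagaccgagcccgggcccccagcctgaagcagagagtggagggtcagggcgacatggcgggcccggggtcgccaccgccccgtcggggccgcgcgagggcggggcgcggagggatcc

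A match is a description of letters and says nothing of whether a factor was bound. In TGATGNAA and its reverse complement the variable base was C in 7 of 11 matches, as in TGATGCAA before Pycr1 and TTGCATCA before Chac1, Aars and Tars, whereas Asns carried TGATGAAA. Members with a match had a median log2 ratio of 0.16 at 8 h, 0.15 at 16 h and -0.04 at 20 h against no LPS, with 9, 9 and 4 of 10 above a ratio of 1. The 18 members whose window held no match had medians of 0.07, 0.03 and -0.01, with 11, 12 and 7 above 1. Aldh1l2, Cth, Cars, Hars, Lars, Nars, Rars, Vars and Wars had no window and are in neither group. The difference between these groups was not tested.

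Among the transcription factors, Atf5 differed between the libraries and Atf4 did not by the rule of size. Atf4 (chr15:80255184-80257541, plus strand) had 808, 807, 825 and 874 CPM in the no LPS, 8 h, 16 h and 20 h libraries. All 4 values lay within 10% of each other, with a ratio to no LPS of 0.999 at 8 h (95% interval 0.981 to 1.02) and of 1.08 at 20 h (1.06 to 1.10). Atf5 (chr7:44812256-44816658, minus strand), whose protein is tied to the mitochondrial unfolded protein response, had 1424, 488, 532 and 1676 reads across these libraries, or 50.4, 17.0, 19.2 and 60.5 CPM. The 8 h and 16 h libraries were both low and the 20 h library was the highest. Atf5 was 2.96-fold lower at 8 h than with no LPS (ratio 0.337, 0.304 to 0.374) and 2.62-fold lower at 16 h (ratio 0.381, 0.344 to 0.421). At 20 h its ratio to no LPS was 1.20 (1.12 to 1.29), below the rule of size. An 82-base stretch of its exons (4.11%) is shared with Nup62 and Il4i1 on the opposite strand, and the sources used here do not give how strand was handled in counting.

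The feedback and effector genes stood slightly above 1 in the 8 h and 16 h libraries. Trib3, a pseudokinase that restrains ATF4, had 223, 257, 254 and 229 CPM in the no LPS, 8 h, 16 h and 20 h libraries. Chac1, which degrades glutathione and is often used as an ATF4 reporter, had 67.8, 82.8, 86.0 and 72.5 CPM in that order. Neither met the rule of size, with ratios to no LPS of 1.15 and 1.22 at 8 h and of 1.14 and 1.27 at 16 h for Trib3 and Chac1.

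**Figure D2:**
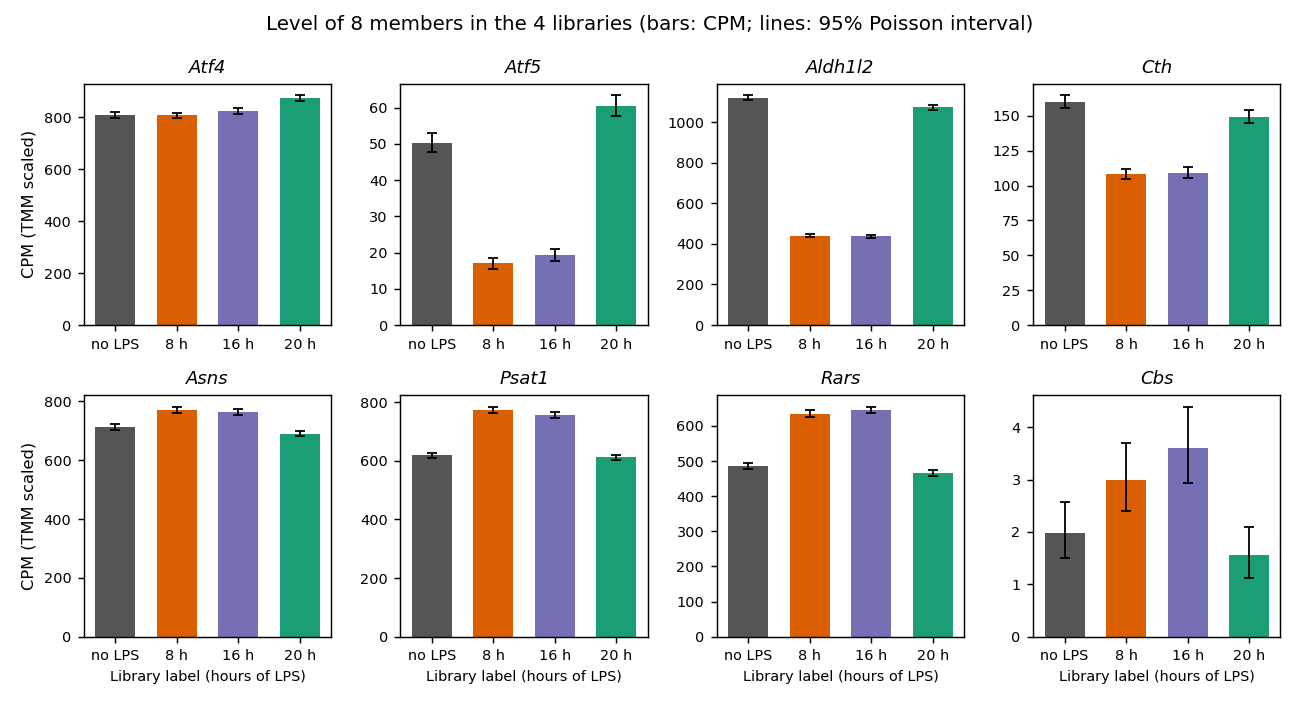
Level in CPM (TMM scaled, linear axes from 0) of 8 members in the 4 libraries, with 1 bar per library and lines for the 95% Poisson interval of the count. Atf5 and Aldh1l2 are low in the 8 h and 16 h bars, at 17.0 and 19.2 CPM and at 440 and 439 CPM, while the 4 bars of Atf4 lie between 807 and 874 CPM.

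None of the 8 amino acid synthesis genes met the rule of size in any comparison with no LPS. The shares of measured genes called higher and lower were 4.19% and 4.13% at 8 h and 4.13% and 4.09% at 16 h. At 20 h they were 0.551% and 0.102%. In the serine pathway the ratios lay on both sides of 1. Psat1 (chr19:15904678-15947337, minus strand), the transaminase of the serine pathway, had 619, 774, 756 and 612 CPM in the no LPS, 8 h, 16 h and 20 h libraries, a ratio to no LPS of 1.25 at 8 h (1.23 to 1.28) and 1.22 at 16 h (1.20 to 1.25). Psph, which removes the phosphate in the last step to serine, had 137, 112, 113 and 146 CPM, with ratios of 0.822 at 8 h and 0.829 at 16 h. Phgdh, which opens the pathway, had 132, 142, 132 and 128 CPM with a ratio of 1.07 at 8 h. Enzymes of a single pathway stood above, near and below their no LPS level in the same libraries. Pycr1 (chr11:120635712-120643769, minus strand), the mitochondrial enzyme of the last step to proline, was the farthest of the 8 from its no LPS level at 8 h and 16 h. It had 83.4, 64.5, 61.8 and 76.0 CPM in order of the labels, with ratios of 0.773 at 8 h and 0.741 at 16 h. Aldh18a1, which makes the proline precursor, had 581, 608, 605 and 579 CPM. Asns (chr6:7675169-7693254, minus strand) had 712, 771, 763 and 691 CPM, a ratio of 1.08 at 8 h (1.06 to 1.10). The transaminases Got1 and Gpt2, which make aspartate and alanine, had ratios of 1.11 and 0.933 at 8 h and of 0.899 and 1.03 at 20 h.

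Of the folate one-carbon enzymes, Aldh1l2 was called lower and the other 5 were not. Aldh1l2 (chr10:83487450-83534140, minus strand) encodes the mitochondrial enzyme that oxidises 10-formyl-tetrahydrofolate to carbon dioxide with release of NADPH. It had 31724, 12637, 12153 and 29777 reads in the no LPS, 8 h, 16 h and 20 h libraries, or 1122, 440, 439 and 1075 CPM. The 8 h and 16 h libraries were alike and low, and the 20 h library lay close to no LPS. Aldh1l2 was 2.55-fold lower at 8 h (ratio 0.392, 0.384 to 0.400) and 2.56-fold lower at 16 h (ratio 0.391, 0.383 to 0.399), with a ratio of 0.958 at 20 h (0.943 to 0.973). Among the 487 genes called lower at 8 h it had the 6th highest level per kilobase in the no LPS library, and Atf5 the 22nd. At 16 h Aldh1l2 was 5th and Atf5 22nd of 483. By log2 ratio, counted from the lowest, Aldh1l2 was 278th and Atf5 187th at 8 h, and 267th and 252nd at 16 h. In the annotation 14.1% of the exon bases of Aldh1l2 (1056 bases) are shared with D10Wsu102e on the opposite strand. D10Wsu102e itself had 5966, 5674, 5550 and 5723 reads in the order of the labels.

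The remaining folate enzymes differed little. Shmt2, which moves the serine carbon into mitochondrial folate, had 721, 683, 658 and 697 CPM in the no LPS, 8 h, 16 h and 20 h libraries. Mthfd2, which oxidises that unit in mitochondria, had 402, 421, 409 and 403 CPM, and Mthfd1l, which releases it as formate, had 321, 276, 271 and 330 CPM. The cytosolic counterparts Shmt1 and Mthfd1 had 92.3, 109, 106 and 94.0 CPM and 338, 358, 353 and 333 CPM. The 4 mitochondrial enzymes had a median log2 ratio of -0.15 at 8 h and -0.19 at 16 h, with Mthfd2 alone above 1, and both cytosolic enzymes were above 1 at both labels. This grouping by compartment was made after the values were seen. The 13 mitochondrially encoded transcripts summed to 17913, 13650, 14040 and 18954 CPM in the order of the labels. Of these 7 were measured and 5 had 0 reads in every library. The sum was low in the same libraries as Aldh1l2 and Atf5. Ratios of the measured transcripts at 8 h ran from 0.342 for mt-Nd6, the 1 called lower, to 0.912 for mt-Co1. The part of these transcripts in the results was not tested.

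Both transsulfuration enzymes, which pass sulfur from homocysteine to cysteine, fell short of the rule of size against no LPS. Cth (chr3:157894248-157925077, minus strand), which releases cysteine, had 160, 108, 109 and 149 CPM in the no LPS, 8 h, 16 h and 20 h libraries. It was the member nearest to a 2-fold lower ratio without reaching it, at 0.675 at 8 h (0.645 to 0.707) and 0.681 at 16 h (0.650 to 0.713). Cbs (chr17:31608894-31637238, minus strand), which condenses homocysteine with serine, was the least abundant member, at 56, 86, 100 and 43 reads in the order of the labels, or 1.98, 3.0, 3.61 and 1.55 CPM. Its ratio to no LPS was 1.51 at 8 h (1.07 to 2.16) and 1.82 at 16 h (1.30 to 2.57). With a fold of at least 1.5 in place of 2, Cbs was the 1 member called higher at 8 h and 16 h, where 10.4% and 10.6% of measured genes were, and Atf5 and Aldh1l2 remained the 2 called lower, where 9.41% and 9.4% were. At 20 h no member passed a fold of 1.5, against 1.72% of measured genes higher and 0.28% lower.

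None of the 17 cytosolic aminoacyl-tRNA synthetases, which load tRNAs with their amino acids, met the rule of size at any label. Of all measured genes 4.19% were called higher and 4.13% lower at 8 h, and 4.13% and 4.09% at 16 h. At 20 h these shares were 0.551% and 0.102%. The summed share of reads of the synthetases was 0.927%, 1.0%, 0.997% and 0.913% in the order of the labels. Ratios to no LPS were above 1 for 15 of 17 at 8 h, 15 of 17 at 16 h and 5 of 17 at 20 h, with median log2 ratios of 0.11, 0.11 and -0.02. Other scalings gave 15 at 8 h, 14 or 15 at 16 h and 4 to 6 at 20 h. The 2 below 1 at 8 h and 16 h were Wars and Eprs. Wars, the tryptophanyl synthetase, had 321, 290, 285 and 327 CPM in the no LPS, 8 h, 16 h and 20 h libraries. Eprs, which charges both glutamate and proline, had 1431, 1428, 1421 and 1372 CPM, a ratio of 0.998 at 8 h (0.984 to 1.01).

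Rars, the arginyl synthetase (chr11:35808381-35834506, minus strand), stood farthest above 1 among them. It had 485.5, 636, 645 and 467 CPM in the no LPS, 8 h, 16 h and 20 h libraries, a ratio of 1.31 at 8 h (1.28 to 1.34), 1.33 at 16 h (1.30 to 1.36) and 0.962 at 20 h (0.939 to 0.985). The 8 h and 16 h libraries were both above the other two. Gars had 800, 991, 992 and 821 CPM in that order, and Vars, the valyl synthetase, had 520, 621, 615 and 572 CPM. Dars and Mars, which load aspartate and methionine, had ratios of 1.21 and 1.19 at 8 h, and Nars and Aars, at 1.06 and 1.02, hardly differed from no LPS. Of the 7 members that belong to the multi-tRNA synthetase complex (Dars, Eprs, Iars, Kars, Lars, Mars and Rars), 6 were above 1 at 8 h and at 16 h and 0 at 20 h, while of the other 10 synthetases 9, 9 and 5 were. This division was also made after the values were seen.

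**Figure D3:**
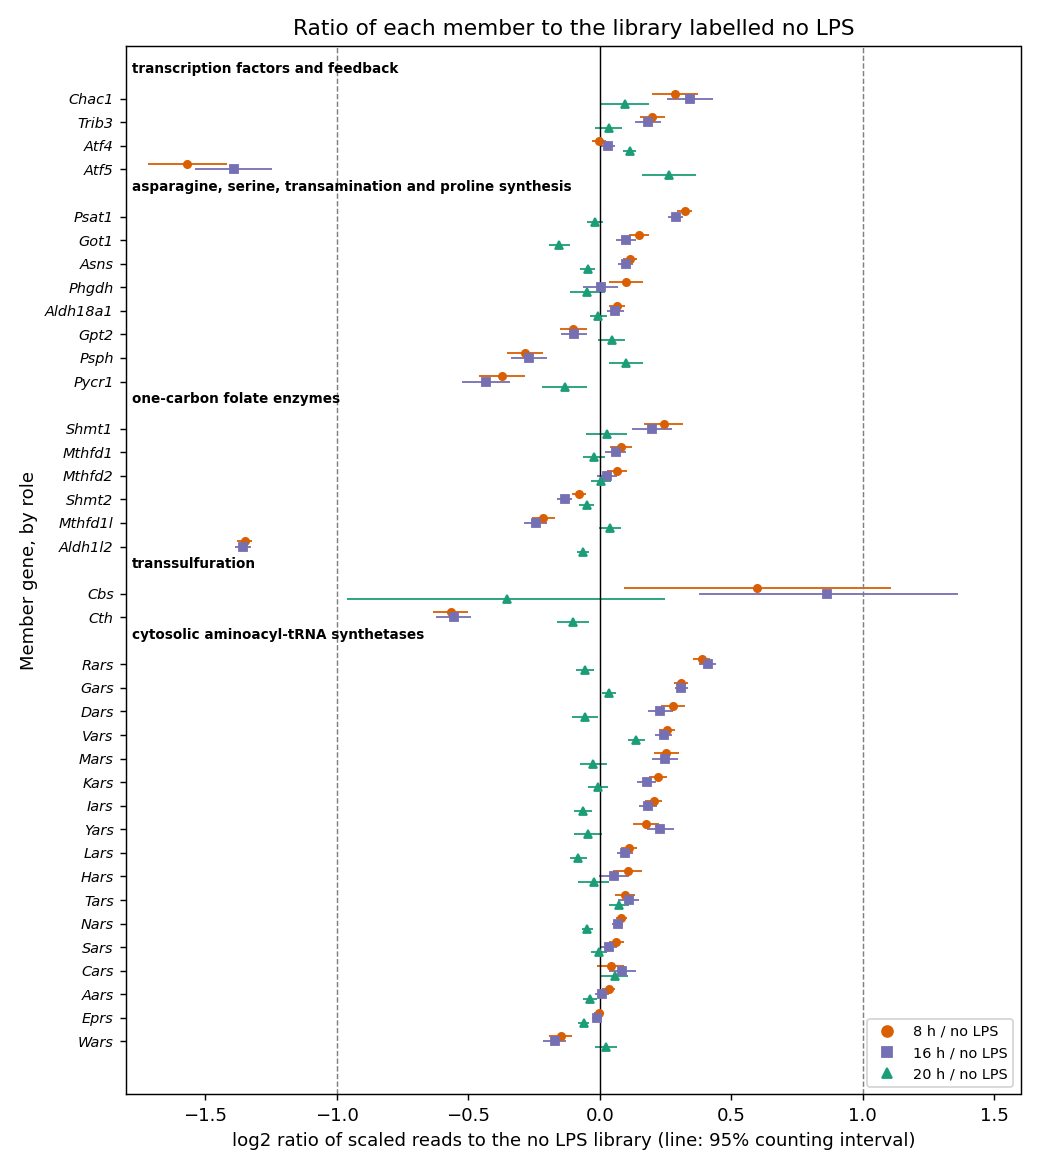
Ratio of each member to the library labelled no LPS on a log2 axis, by role, with points for the 8 h, 16 h and 20 h libraries, lines for the 95% counting interval and dashed lines at 2-fold. Atf5 and Aldh1l2 lie beyond 2-fold lower at 8 h and 16 h, 15 of the 17 synthetases lie right of 0 at both labels, and the 20 h points gather near 0.

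The calls among the members were set beside those among all genes. At 8 h 0 of 37 were higher and 2 lower, where 4.19% of measured genes were higher and 4.13% lower. At 16 h the counts were 0 higher and 2 lower, with a background of 4.13% and 4.09%, and at 20 h 0 and 0, with 0.551% and 0.102%. The members are abundant genes, and among the 9095 genes of at least 10 CPM the background was 2.3% higher and 1.4% lower at 8 h and 2.3% higher and 1.41% lower at 16 h. The comparisons with no LPS share that library, so their likeness is not independent. Ratios above 1 were found for 26, 27 and 14 of 37 members at 8 h, 16 h and 20 h, against 50.3%, 50.5% and 49.1% of measured genes. Among genes of at least 100 CPM the members had 24, 25 and 12 of 33 above 1, against 53.3%, 52.9% and 42.8% of 2928 genes. The members' median log2 ratio was 0.09 at 8 h, 0.07 at 16 h and -0.02 at 20 h, beside 0.00, 0.01 and -0.00 for all measured genes. Of measured genes 1.64% had a lower log2 ratio than Atf5 at 8 h and 2.46% a lower one than Aldh1l2.

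**Figure D4:**
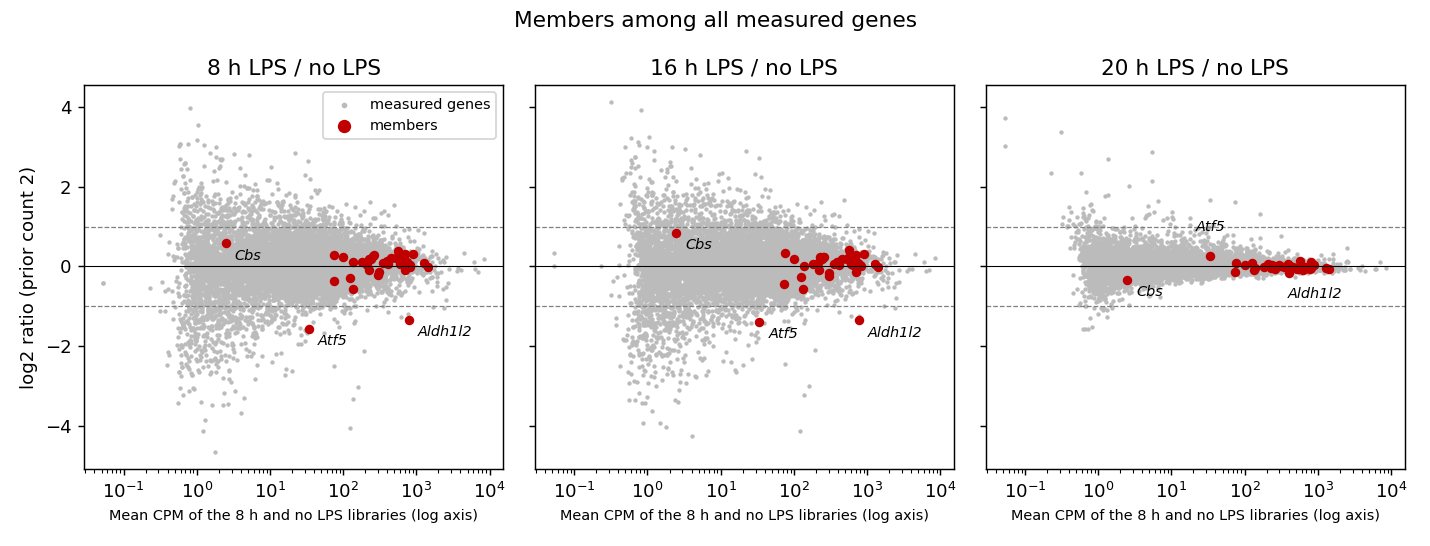
Log2 ratio to the library labelled no LPS (prior count 2) against the mean CPM of the 8 h and no LPS libraries on a log axis, with grey points for the 11803 measured genes, red points for the 37 members and dashed lines at 2-fold. Most members sit at the high end of expression and near 0, apart from Atf5 and Aldh1l2 at 8 h and 16 h, and the whole cloud is narrower at 20 h.

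Between the LPS libraries, calls among the members were made at 20 h against 16 h but not at 16 h against 8 h. No member was called at 16 h against 8 h, where 0.161% of measured genes were higher and 0.0763% lower. At 20 h against 16 h, 2 members were higher and 1 lower, where 4.63% of genes were higher and 3.85% lower. Atf5 was 3.15-fold higher (2.86 to 3.48) and Aldh1l2 2.45-fold higher (2.40 to 2.50) at 20 h than at 16 h, and Cbs was lower with a ratio of 0.430 (0.294 to 0.621). These comparisons share the 16 h library with those above. A linear trend over the labelled hours 0, 8, 16 and 20, fitted in edgeR over all measured genes with 2 residual degrees of freedom, had an adjusted p under 0.05 for 0% of genes and 0 members. At an unadjusted p under 0.05 it held 43 genes and 0 members, and DESeq2 gave 0 adjusted and 25 unadjusted. The unadjusted edgeR count was 540 genes and 2 members without the no LPS library, 18 and 0 without 8 h, 24 and 0 without 16 h, and 2110 and 5 without 20 h, with 0 adjusted in each. In the fit to all 4 libraries the lowest p of a member was 0.428, for Vars, with an edgeR adjusted p of 0.9999. A linear term cannot describe levels that are low at 8 h and 16 h and high at both ends, as those of Atf5 and Aldh1l2 are.

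Genes that act beside the members, taken from lists of known pathway genes, were measured in the same libraries. Of 16 genes for the eIF2 kinases, eIF2B and the phosphatase subunits of the integrated stress response, 0 were called against no LPS. At 8 h 4.19% of measured genes were called higher and 4.13% lower. The most distant of the 16 was Impact, an inhibitor of GCN2, with 110, 74.0, 71.9 and 103 CPM in the no LPS, 8 h, 16 h and 20 h libraries. Of 25 other ATF4-linked stress and transport genes 3 were called lower at 8 h and at 16 h, Stc2, Slc7a3 and Fgf21, and 0 higher, where 4.13% and 4.09% of measured genes were lower. Stc2, a secreted glycoprotein, had 638, 264, 266 and 561 reads in the order of the labels. Slc7a3, a transporter of cationic amino acids, had 740, 246, 270 and 712 reads, and Fgf21, a stress hormone, 45, 11, 9 and 40. These 3 genes were low in the 8 h and 16 h libraries, as Atf5 and Aldh1l2 were. In these libraries 487 and 483 of all measured genes were called lower. At 20 h 2 of the 25 were called higher, where 0.551% of measured genes were, and 0 lower. Cebpb, a C/EBP partner of ATF4, had 46.9 CPM at 20 h against 20.1 with no LPS, and Gdf15, a stress cytokine, had 20.0 against 8.85. After a correction for GC content 55 measured genes, in place of 65, were called higher at 20 h. The effect of this correction on Cebpb and Gdf15 is not given here. Ddit3, which encodes CHOP and overlaps Mars on the opposite strand by 68 bases, had 426, 486, 469 and 426 CPM, and the cystine transporter gene Slc7a11 had 227, 251, 251 and 221.

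None of 17 mitochondrial synthetases was called against no LPS. At 8 h 12 of them had a ratio below 1, with a median log2 ratio of -0.14, while 15 of the 17 cytosolic ones were above 1. This difference was not tested. Of all measured genes 50.3% had a ratio above 1 at 8 h, 4.19% were called higher and 4.13% lower. The 6 further synthetase and scaffold genes (Qars, Farsa, Farsb, Aimp1, Aimp2 and Eef1e1) had 0 calls. Of 19 measured genes of glutamine, glutamate, proline and arginine metabolism Arg2, the mitochondrial arginase, was called lower at 8 h and 16 h. The share of measured genes called lower was 4.13% and 4.09% at these labels. Arg2 had few reads, at 61, 13, 21 and 51 in the no LPS, 8 h, 16 h and 20 h libraries.

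**Figure D5:**
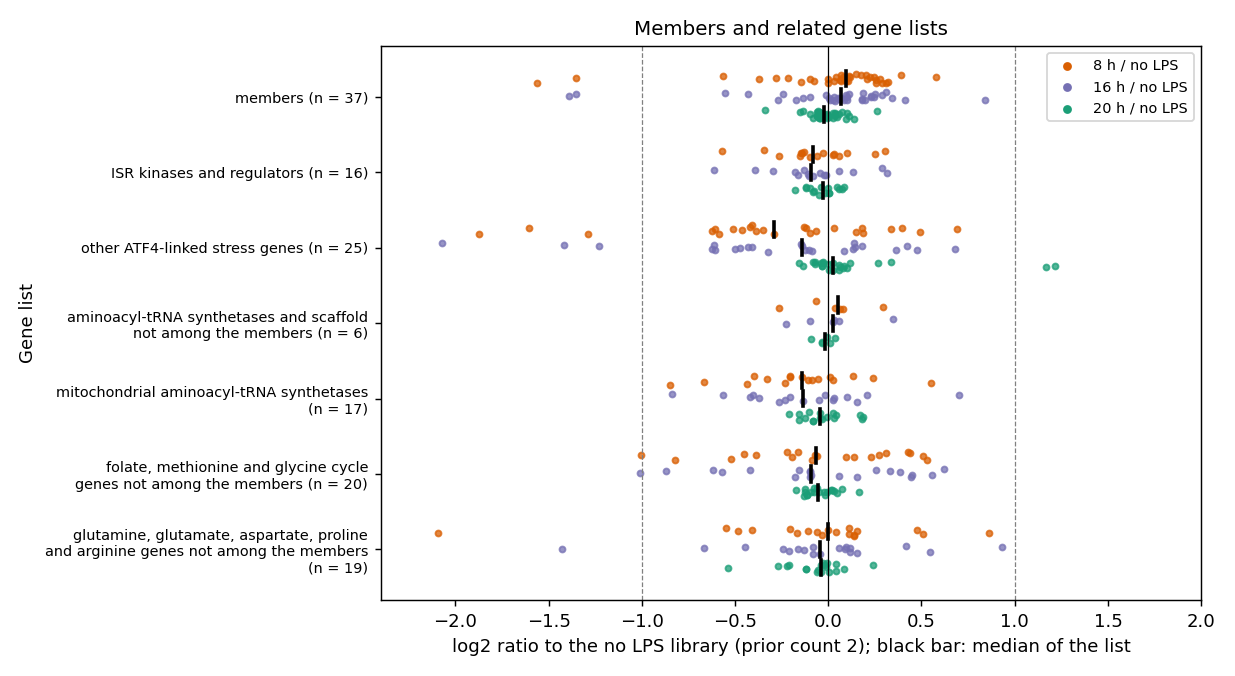
Log2 ratio to the library labelled no LPS (prior count 2) of each measured gene in the member list and in 6 related lists, with points for the 8 h, 16 h and 20 h libraries, black bars for list medians and dashed lines at 2-fold. Cebpb and Gdf15, at log2 ratios of 1.22 and 1.17 without GC correction, are the 20 h points beyond 2-fold. The lower tails at 8 h and 16 h include Atf5, Aldh1l2, Stc2, Slc7a3, Fgf21 and Arg2.

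Some cell type markers were also called at 8 h and 16 h, in both directions, and others were not. Krt8 and Krt18, keratins of simple epithelia, were the 2 measured genes of 8 epithelial markers, and the list summed to 51.6, 124, 125 and 52.1 CPM in the no LPS, 8 h, 16 h and 20 h libraries, while Sftpb and Nkx2-1 had 0 reads in all 4. Of 9 fibroblast and mesenchymal markers, Col3a1 (168, 81.8, 83.2 and 163 CPM) and Dcn (9.48, 2.96, 3.43 and 7.73 CPM) were called lower at 8 h and 16 h, while Prrx1 had 209 to 213 CPM in all 4. S1pr1, whose reporter was used in the sort, had 27, 87, 79 and 29 reads in that order. It was called higher at 8 h (ratio 3.17, 2.04 to 5.08) and at 16 h (2.98, 1.91 to 4.81). The 7 macrophage markers summed to 125, 94.4, 93.5 and 127 CPM in that order. Most of this was Cd68, at 99.7, 66.5, 62.0 and 96.6 CPM, while Adgre1 at 8 h and Adgre1 and Csf1r at 16 h were called higher, each at 77 reads or fewer. Of 5 neutrophil markers S100a8, at 34 reads or fewer, was called lower at 8 h and 16 h. Of 6 leukocyte markers, which summed to 8.01 to 9.10 CPM, none was called at 8 h or 16 h. In these bulk libraries fewer cells of a type and less RNA per cell cannot be told apart, and the part of these markers in the results was not tested.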

How the data were processed

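Per the labels, oligo-dT RNA-seq libraries of sorted lung cells were made, 1 for each of 4 labels. The authors deposited 1 table of unnormalized gene counts, made with STAR and featureCounts on mm10, per the submitters' processing notes; versions, annotation, strand handling and the treatment of multi-mapped reads were not found in the sources.

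Of 39056 identifiers 38872 (99.5%) matched the GENCODE M21 annotation by stable identifier, which gave symbols, coordinates counted from 1 and exon lengths. Counts were scaled with edgeR 4.0.16 TMM factors from all 4 libraries. Each of 5 pairs was described by the fold with its exact conditional binomial (Clopper-Pearson) 95% interval and the rule of size, and log2 ratios used a prior count of 2. The linear trend used glmQLFit and glmQLFTest with Benjamini-Hochberg adjustment over the 11803 measured genes. The code was tested on simulated data. All 37 members were named, and in related lists the genes called against no LPS, others for context. The calls of 1 related list are not reported here. The members and lists were chosen with earlier results of these data known. Alternatives were other scalings (library totals, DESeq2 1.42.0 size factors, upper quartiles), prior counts of 0.5 and 10, minimum levels, folds of 1.5 and 4, a stricter interval level, thinning to the smallest total, DESeq2 for the trend, leaving out each library in the trend and, added after seeing the data, a GC correction. Promoter windows came from RefSeq (GRCm38.p6). For 9 members no window was used. Copies named as pseudogenes of Phgdh and Kars had at most 1 read.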

Additional observations from a re-analysis of the deposited data

How the results depend on the processing

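The calls on Atf5 and Aldh1l2 at 8 h and 16 h were made under every scaling, minimum level and interval, after thinning and after the GC correction, and under a fold of 1.5. With a fold of 4 no member was called: 0 at 8 h, 0 at 16 h and 0 at 20 h against 16 h. At 20 h against 16 h Cbs was not called with a minimum of 10 CPM. Genes called against no LPS numbered 981 at 8 h, 971 at 16 h and 77 at 20 h, and 28 at 16 h against 8 h and 1000 at 20 h against 16 h. A fold of 1.5 gave 2343, 2356, 236, 92 and 2449 in that order, a fold of 4 gave 187, 178, 9, 2 and 184, and a minimum of 10 CPM gave 332, 332, 22, 0 and 357. No minimum level gave 1484 at 16 h, 216 at 20 h and 172 at 16 h against 8 h, and the stricter interval gave 40 at 20 h and 4 at 16 h against 8 h. The share of calls that were higher at 8 h was 50.4%, and became 62.3% with 10 CPM and 32.6% with a fold of 4. The members' median log2 ratio at 20 h was -0.048 with upper quartile scaling and -0.02 with TMM. Of 1110 single-member alternatives 23 moved by more than their counting interval, 15 of them under the GC correction, and 0 called values changed sign. Trib3 and Vars, above 1 at 20 h, had log2 ratios of -0.03 and -0.01 after that correction, and Aars at 8 h had -0.02. The log2 ratio of Atf5 at 20 h was 0.26 before and 0.09 after it. In the trend, leaving out each library in turn left 0 genes and 0 members past an adjusted p of 0.05. No paired analysis was possible because each label has 1 library. Without replicates, depth limits Cbs, whose 43 to 100 reads leave wide intervals.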

Other observations

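The genes given here were chosen after their values were seen, stand for no list, and were not called against no LPS. Gart, Paics and Atic, which build the purine ring, had 291, 391, 396 and 276 CPM, 230, 312, 314 and 221 CPM, and 334, 415, 421 and 309 CPM in the no LPS, 8 h, 16 h and 20 h libraries. Tyms, thymidylate synthase, had 19.6, 28.4, 28.9 and 18 CPM in that order. Glul, which makes glutamine, had 139, 198, 204 and 136 CPM, and Gls2, a glutaminase, 17.3, 31.5, 33.2 and 14.9. Among neutral amino acid transporter genes, Slc38a2 had 492, 322, 322 and 483 CPM, Slc1a4 214, 155, 154 and 226 CPM, and Slc1a5 183, 138, 136 and 175 CPM. Herpud1, of endoplasmic reticulum protein disposal, had 278, 449, 445 and 295 CPM.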
